A study of Mus musculus with 10 samples.

Results

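Annexins are proteins that bind phospholipid membranes when calcium rises, and this report describes their genes in mouse cells at the end of reprogramming to pluripotency. All probe sets with a single gene symbol among 9 annexin symbols (Anxa1 to Anxa8 and Anxa11) were taken. The 9 symbols had been selected from earlier results of these same arrays, by name and with no stated contrast or threshold, so their levels below are a description and the number of annexins that differed is not independent evidence about the family. Of the 9, 8 had a value, at 16 probe sets, of which 14 were kept because they exceeded 4, in log2 units, on 2 or more arrays. At least 1 probe set was kept for each of the 8 genes, among 8599 genes kept in all. Anxa11 had no probe set of its own. Where a gene had several kept probe sets, the brightest on average stands for it. The 2 probe sets left out both belong to Anxa2 and stayed below 4 on all 10 arrays.

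The series holds 10 Affymetrix arrays, 2 for each of 5 groups. Established induced pluripotent stem cells (iPSC) came from 2i medium with serum, where 2i blocks MEK and GSK3, or from co-culture with mouse embryonic fibroblasts (MEFs). Secondary MEFs, a term for fibroblasts derived from cells that already carry the reprogramming factors, were taken on day 32 of expression of the Yamanaka factors, which are Klf4, Myc, Pou5f1 and Sox2. They form 3 groups that share the factors and the time: a day 32 sample with no fraction named, and the fractions positive and negative for Sox2. The series title names RNA FACS, in which cells are sorted by an RNA. The cell type label calls all 10 samples iPSCs. The sources used here give no strain, age or MEF line, and do not say whether MEFs were removed from the co-culture. Whether replicates a and b were separate cultures is not stated, so each p-value rests on a spread that may be technical.

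The arrays fell into 2 classes by their 18S ribosomal RNA control. It read 11.35 to 13.22 on the 6 arrays of the sorted fractions and of iPSC with MEFs, and 5.25 to 6.55 on the 4 arrays of iPSC in 2i and of day 32. The gap between the 3' and 5' Actb controls was 0.05 to 1.12 in the first class and 2.70 to 3.88 in the second. Inside the first class it was 1.12 and 1.08 on iPSC with MEFs and 0.05 to 0.21 on the sorted fractions. The upper quartile of all values was 7.38 and 7.37 there and 6.87 to 6.91 on the fractions. Group and these array differences cannot be told apart where a fraction is set against iPSC with MEFs. Comparisons inside a class come first below, and between the classes group and class cannot be told apart. Sox2 itself, the gene of the sort, read 9.46 and 10.45 in the positive and 4.45 and 4.13 in the negative fraction. All 10 genes of a marker list (among them Pou5f1, Nanog, Zfp42 and Esrrb) were above 4 on both arrays of every group except the Sox2-negative fraction, where 5 were, and Zfp42 and Utf1 lay below 4 on both arrays. Of 12 fibroblast markers 7 were kept. In iPSC with MEFs only 2 of them were above 4 on both arrays, Col1a1 (7.49 and 7.43) and Col1a2 (5.59 and 5.27). Col5a2 and Prrx1 lay below 4 there, and Col3a1, Pdgfrb and Twist1 were above 4 on a single array. Col1a1 was also above 4 in iPSC in 2i (5.07 and 6.86) and at day 32 (5.33 and 6.96).

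The annexin core is a repeated fold that holds calcium against the acidic lipids of a membrane, and the members differ mainly in the short stretch in front of it, which binds other proteins. Anxa1 is released in inflammation, acts on formyl peptide receptors and inhibits cytosolic phospholipase A2. Anxa2 forms a complex with S100a10 at the plasma membrane and the cortical actin. Anxa5 binds phosphatidylserine and is the reagent used to stain dying cells, and several annexins gather at wounded membranes.

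The promoters of Anxa1, Anxa2, Anxa5 and Anxa8 are shown because these genes, with Anxa3, were the ones that differed between the sorted fractions. Each stretch is the 250 bases before the annotated start, 5′ to 3′ along the gene, from RefSeq (GRCm38.p6), which gave windows for 7 of the 9 members. Capitals mark matches to the motifs named after them.

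Anxa1, chr19:20390672-20390921, minus strand: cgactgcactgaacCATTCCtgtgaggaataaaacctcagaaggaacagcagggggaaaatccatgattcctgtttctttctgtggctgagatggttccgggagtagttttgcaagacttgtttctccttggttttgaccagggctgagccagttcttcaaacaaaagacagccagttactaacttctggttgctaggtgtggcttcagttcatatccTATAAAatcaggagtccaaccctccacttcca

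Anxa2, chr9:69453433-69453682, plus strand: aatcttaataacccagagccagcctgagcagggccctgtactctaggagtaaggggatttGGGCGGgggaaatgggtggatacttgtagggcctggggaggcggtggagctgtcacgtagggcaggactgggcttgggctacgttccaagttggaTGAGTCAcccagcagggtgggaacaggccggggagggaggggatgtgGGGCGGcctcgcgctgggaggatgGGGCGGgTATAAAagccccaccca

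Anxa5, chr3:36475888-36476137, minus strand: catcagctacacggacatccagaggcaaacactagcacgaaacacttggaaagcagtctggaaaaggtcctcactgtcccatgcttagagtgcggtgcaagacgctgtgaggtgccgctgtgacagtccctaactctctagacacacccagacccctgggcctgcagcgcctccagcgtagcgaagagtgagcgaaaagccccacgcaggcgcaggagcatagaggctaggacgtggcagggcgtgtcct

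Anxa8, chr14:34085729-34085978, plus strand: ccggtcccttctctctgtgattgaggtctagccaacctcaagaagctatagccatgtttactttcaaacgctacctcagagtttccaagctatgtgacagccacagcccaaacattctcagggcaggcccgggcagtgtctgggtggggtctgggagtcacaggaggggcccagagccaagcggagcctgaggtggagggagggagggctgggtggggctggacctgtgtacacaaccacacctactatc

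Windows from 250 bases before to 50 after the start were searched on both strands for the AP-1 motif TGANTCA, the cyclic AMP response motif TGACGTCA, the TATA box TATAAA, the GC box GGGCGG, the TEAD motif GGAATG and the E-box CACGTG. Anxa2 held an AP-1 match at position -95 (TGAGTCA), which 7.81% of all 32851 windows hold, a TATA box at -17 and GC boxes at -190, -48 and -24. Anxa1 held a TATA box at -32 and a TEAD match on the other strand at -236. TATA boxes are in 13.6%, TEAD matches in 14.7% and GC boxes in 35.7% of windows. The windows of Anxa5 and Anxa8 held none of these letters, so no motif was common to the 4 genes. The share of G and C before the start was 46.0% in Anxa1, 62.4% in Anxa2, 58.8% in Anxa5 and 58.0% in Anxa8, against a median of 52.4%. A match is a description of the letters and no evidence of a bound factor.

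**Figure D1:**
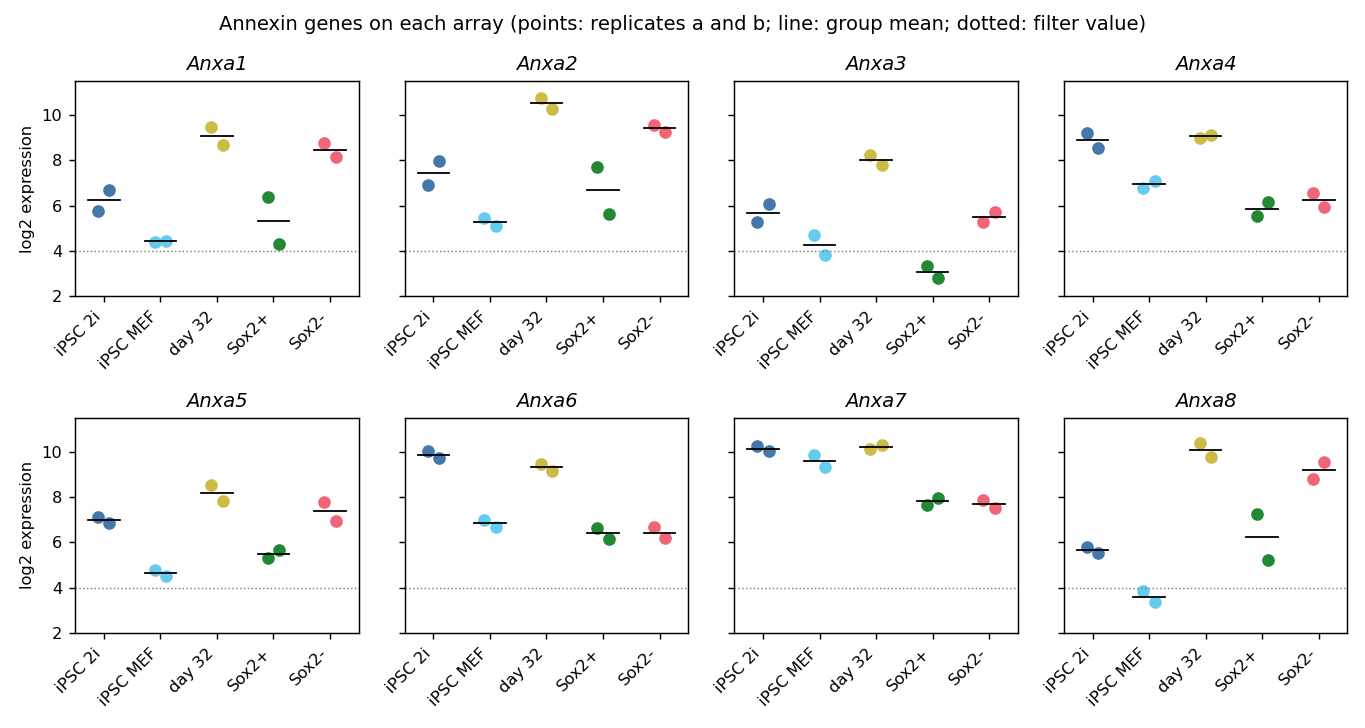
Deposited log2 expression of the 8 annexin genes on each of the 10 arrays, by group. Points are replicates a and b, lines are group means and the dotted line is the filter value of 4. Each gene is shown by its brightest kept probe set. Anxa1, Anxa2, Anxa5 and Anxa8 were lowest on average in iPSC with MEFs. All 5 of Anxa1, Anxa2, Anxa3, Anxa5 and Anxa8 were highest in the day 32 sample. The other Anxa8 probe set, not drawn, was highest in Sox2-negative cells. Heights of different genes come from different probes and are not comparable.

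Sox2-positive cells had lower Anxa1, Anxa2, Anxa3, Anxa5 and Anxa8 than Sox2-negative cells of the same day. The differences of these 5 genes, of 8, were -3.12 to -1.90 log2 units and none was called higher, while Anxa4, Anxa6 and Anxa7 did not pass. Over all 8599 genes 5.65% were called lower and 6.86% higher in the Sox2-positive fraction at an adjusted p from limma under 0.05. The median difference was -2.16 over the 8 annexins and -0.02 over all genes. In bulk RNA, fewer cells that express a gene and less RNA per cell cannot be told apart.

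Anxa1, the formyl peptide receptor ligand, read 6.40 and 4.29 on the Sox2-positive arrays and 8.77 and 8.16 on the Sox2-negative ones. It was 8.69-fold lower in the positive fraction (difference -3.12, SE 0.63, limma adjusted p = 0.0163). The groups did not overlap, but the positive arrays were themselves 2.11 apart. Anxa2, the S100a10 partner, read 7.72 and 5.63 against 9.58 and 9.27, which is 6.73-fold lower (difference -2.75, SE 0.62, adjusted p = 0.0233). Its positive arrays lay 2.09 apart in the same direction as those of Anxa1. Anxa8, known as an inhibitor of blood clotting in the test tube, read 7.25 and 5.23 against 8.81 and 9.54, 7.65-fold lower (difference -2.94, SE 0.58, adjusted p = 0.0154). Again replicate a was the higher Sox2-positive array, by 2.02.

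Anxa3 read 3.32 and 2.82 in the Sox2-positive fraction, below the filter value on both arrays, and 5.26 and 5.72 in the negative fraction. It was therefore at least 2.81-fold lower (difference -2.42, SE 0.40, limma adjusted p = 0.00704), a bound taken against the value of 4. Anxa5, the phosphatidylserine binder, read 5.30 and 5.65 against 7.79 and 6.96, 3.73-fold lower (difference -1.90, SE 0.35, adjusted p = 0.0114). For both genes the replicates within a fraction lay closer together (0.83 or less) than the fractions did.

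The other 3 measured annexins had no call between the fractions. Anxa4, abundant in secretory epithelia, read 5.54 and 6.15 in the positive and 6.54 and 5.96 in the negative fraction (difference -0.41, 95% interval -1.17 to 0.36, limma adjusted p = 0.473). Anxa6, which has its core in duplicate, read 6.65 and 6.17 against 6.68 and 6.18 (difference -0.02, interval -0.69 to 0.65). Anxa7, a partner of the calcium sensors sorcin and Pdcd6, read 7.67 and 7.95 against 7.85 and 7.53 (difference 0.12, interval -0.51 to 0.75). The arrays of the fractions overlapped for all 3. At these probe sets the intervals leave out changes of 1 log2 unit for Anxa6 and Anxa7, and not for Anxa4. The further Anxa6 probe sets had wider intervals, -1.78 to 0.99 and -1.01 to 1.03, which include such a change, and 1 of the further Anxa7 probe sets did too (-1.03 to 0.27).

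The count of 5 was sensitive to single arrays. It was 3 without Sox2-positive replicate b, which ended the calls of Anxa1 (limma adjusted p = 0.0568) and Anxa2 (0.0842), 3 without Sox2-negative replicate a (Anxa1 0.0676, Anxa2 0.0834) and 3 without Sox2-negative replicate b (Anxa2 0.0590, Anxa8 0.0634). With the 4 compared arrays alone only Anxa3 was called (0.0323), and with array weights Anxa2 was not (0.0639).

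**Figure D2:**
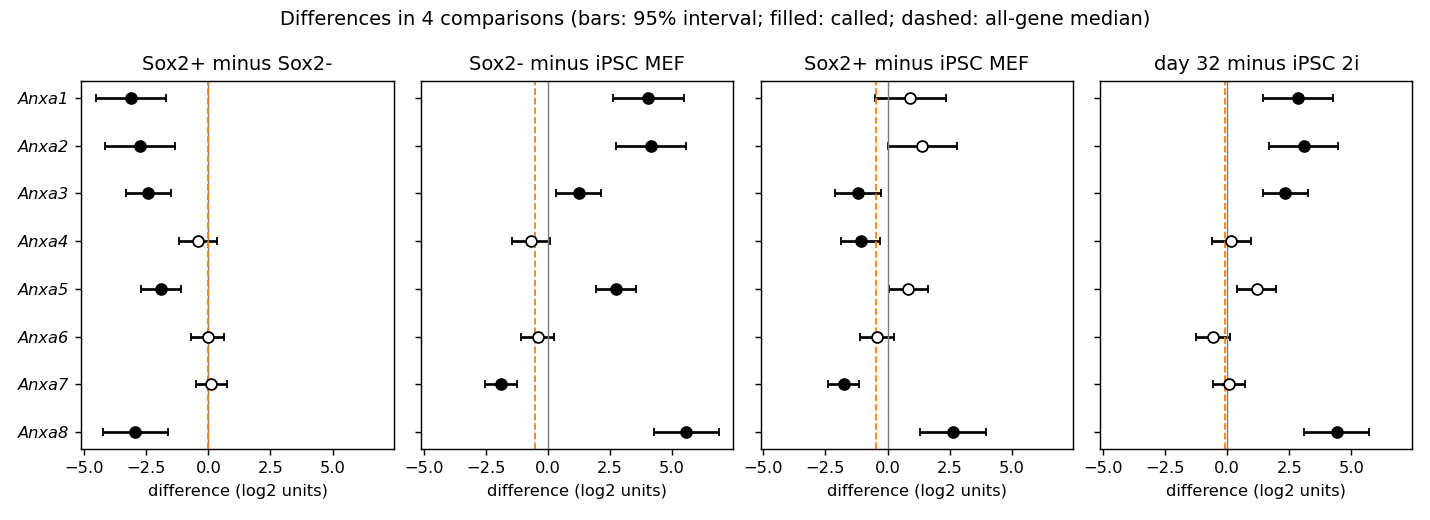
Differences in log2 units for the 8 annexin genes in the comparisons that stay inside an array class, with 95% intervals from limma. Filled points were called at an adjusted p under 0.05 over 8599 genes, and dashed lines are the all-gene medians. Anxa3 and Anxa8 were called in all 4 comparisons, Anxa1 and Anxa2 in 3 and Anxa6 in 0.

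The Sox2-positive replicates lay far apart for 3 members. A gap as large as that of Anxa1, Anxa2 or Anxa8 was reached by 1.69%, 1.73% and 1.92% of the 8599 genes, and the median gap was 0.39. In the same fraction the gaps of Anxa3, Anxa4, Anxa5, Anxa6 and Anxa7 were 0.28 to 0.61 in size. Of the 7 kept fibroblast markers, Col5a2, a fibrillar collagen gene, read 6.16 on replicate a and 3.39 on b, and Prrx1, a mesenchymal transcription factor gene, 5.30 and 1.96. Col1a1 (2.80 and 3.15), Pdgfrb (2.81 and 3.59) and Twist1 (3.33 and 4.28) were instead higher on replicate b. Col1a2 (1.92 and 1.74) and Col3a1 (2.79 and 2.70) lay below 4 on both arrays. The mean of the 7 was 3.59 and 2.97. Their part in the annexin gap was not tested.

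Marker lists of other cell types differed between the fractions in both directions. The 5 kept fat cell markers of 6 averaged 3.21 to 3.55 on the Sox2-positive and 6.86 to 7.03 on the Sox2-negative arrays, and 4 of them were above 4 on both negative arrays. Adipoq, a defining fat cell gene, stayed below 4 in each fraction. The 7 fibroblast markers averaged 2.97 to 3.59 and 4.88 to 4.97, with 0 and 3 above 4 on both arrays, and Col1a2 was below 4 in each. The 5 kept squamous markers of 8 averaged 2.76 to 2.87 and 4.47 to 4.61, with 0 and 1 above 4, and Krt14, Krt17 and Sfn below 4 in each. The squamous marker above 4 was Krt6b, at a mean of 2.72 and 9.73, while Krt17 (3.69 and 3.27) and Sfn (3.81 and 3.74) were not higher in the negative fraction. The single kept endothelial marker, Tek, read 4.25 to 5.72 and 5.59 to 6.53. The mean of the 8 simple epithelial markers went the other way, at 6.42 to 6.43 on the positive and 4.62 to 4.66 on the negative arrays. Among them Krt8 (7.23 and 6.10 against 8.19 and 7.93) and Krt19 (2.31 and 2.96 against 3.96 and 3.67) were instead higher in the negative fraction. Cd68, the only macrophage marker kept, was higher in the positive fraction, at 6.90 to 6.96 and 4.16 to 4.17. The 3 kept endoderm markers of 8 overlapped, at 3.18 to 3.54 and 3.22 to 3.41. The part of such cells in the annexin differences was not tested.

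Sox2-negative cells had more Anxa8, Anxa2, Anxa1, Anxa5 and Anxa3 than iPSC with MEFs and less signal at 1 probe set of Anxa7. Of the 8 genes 5 were called higher and 1 lower, where 12.0% of all genes were called higher and 35.6% lower. The all-gene median was -0.51, and that of the annexins 1.98. Anxa8 read 8.81 and 9.54 against 3.84 and 3.37 and was at least 36.1-fold higher (difference 5.57, SE 0.58, limma adjusted p = 0.000279). This was the widest difference among the 8 genes in any of the 6 comparisons, counting the brightest probe set of each. Anxa2 was 17.8-fold higher (9.43 ± 0.22, SD, n = 2, against 5.28 ± 0.23, adjusted p = 0.000996) and Anxa1 16.4-fold (8.47 ± 0.43 against 4.43 ± 0.02, adjusted p = 0.00123). Anxa5 was 6.66-fold higher (7.38 ± 0.59 against 4.64 ± 0.18, adjusted p = 0.000582). Both negative arrays lay above both iPSC arrays for each of these 4 genes.

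Anxa3 was 2.35-fold higher in Sox2-negative cells than in iPSC with MEFs, where it read 4.70 and 3.82 (limma adjusted p = 0.0325). Its call ended without iPSC with MEFs replicate b (0.217), without Sox2-negative replicate b (0.138) and with array weights (0.0574). Anxa7 was 3.71-fold lower by its brightest probe set (7.85 and 7.53 against 9.84 and 9.32, adjusted p = 0.000955). Anxa4 (difference -0.69, 95% interval -1.45 to 0.08) and Anxa6 (-0.41, interval -1.07 to 0.26) were not called. Quantile normalization left the 5 higher and 1 lower as counts, although it changed the split over all genes from 1028 higher and 3059 lower to 1409 and 1494.

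Against iPSC with MEFs, Sox2-positive cells were called higher for Anxa8. They were called lower for Anxa3 and for a single probe set each of Anxa7 and Anxa4. The single higher call compares with 6.13% of all genes, and the 3 lower calls with 29.8%, around an all-gene median of -0.46. Neither count is read as a result about the family. This comparison and the one before it share the iPSC arrays. Anxa8 was at least 4.72-fold higher (6.24 ± 1.43 against 3.61 ± 0.33, SD, n = 2, limma adjusted p = 0.0094). Anxa7 was 3.41-fold lower by its brightest probe set (7.81 ± 0.20 against 9.58 ± 0.37, limma adjusted p = 0.00251). Anxa4 was 2.13-fold lower by its brightest (5.85 ± 0.43 against 6.94 ± 0.21, adjusted p = 0.0344). Anxa3 was at least 1.20-fold lower (3.07 ± 0.35 against 4.26 ± 0.62, adjusted p = 0.0462).

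Anxa2 and Anxa5 lay above iPSC with MEFs on both Sox2-positive arrays without passing. The Anxa2 difference was 1.40 (SE 0.62, limma adjusted p = 0.106) and that of Anxa5 0.84 (SE 0.35, adjusted p = 0.0941). Anxa1 overlapped, with the positive arrays at 6.40 and 4.29 around the iPSC values of 4.41 and 4.44. The Anxa1 difference was 0.92 with both arrays and -0.13 once Sox2-positive replicate a was left out. Without replicate b it was 1.98 and called (limma adjusted p = 0.0212), as was Anxa2 (0.00893).

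In Sox2-positive cells some calls against iPSC with MEFs depended on the scaling or on single arrays. Anxa7 and Anxa8 stayed called under both quantile normalization and median centring. Quantile normalization left 1 higher (Anxa8) and 1 lower (Anxa7), beside a split of 738 higher and 778 lower over all genes in place of 527 and 2561. Median centring ended the calls of Anxa3 (limma adjusted p = 0.198) and Anxa4 (0.186) and gave one to Anxa5 (0.0320), with 1009 genes higher and 1159 lower. The count was 2 without iPSC with MEFs replicate a, without its replicate b and without Sox2-positive replicate a. Anxa8 lost its call without iPSC with MEFs replicate b (0.0648).

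The day 32 sample had more Anxa8, Anxa2, Anxa1 and Anxa3 than iPSC in 2i and serum, on arrays of the other class. Of the 8 genes 4 were called higher and 0 lower, against 5.23% and 2.50% of all genes. The all-gene median was -0.11 and the annexin median 1.76. Anxa8 read 10.38 and 9.76 against 5.81 and 5.53, 21.1-fold higher (difference 4.40, SE 0.58, limma adjusted p = 0.00379). Anxa2 read 10.77 and 10.27 against 6.89 and 7.99, 8.46-fold higher (adjusted p = 0.0207). Anxa1 read 9.48 and 8.69 against 5.78 and 6.71, 7.16-fold higher (adjusted p = 0.0296). Anxa3 read 8.22 and 7.79 against 5.26 and 6.08, 5.05-fold higher (adjusted p = 0.0119). In each case both day 32 arrays lay above both iPSC arrays.

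Anxa5 lay in the same direction, at 8.51 and 7.84 against 7.14 and 6.85, without passing (difference 1.18, 95% interval 0.38 to 1.98, limma adjusted p = 0.0798). With array weights it was called (0.0327). Anxa4 (difference 0.17), Anxa6 (-0.57) and Anxa7 (0.07) had no call, with intervals from -1.24 to 0.94 over the 3. Only Anxa8 was called without iPSC in 2i replicate a or without day 32 replicate a. Without iPSC in 2i replicate b, Anxa1 alone lost its call (0.0737), which it also did with no filter (0.0526). The fat cell markers averaged 6.96 to 7.45 in the day 32 sample and 3.81 to 4.26 in iPSC in 2i, and the squamous markers 5.88 to 6.26 and 3.86 to 3.96. Among the squamous markers Krt6b differed most (9.90 against 1.93), and Krt17 (4.31 against 4.55) and Sfn (6.32 against 6.96) were lower at day 32. The fibroblast markers averaged 6.25 to 6.35 and 3.99 to 4.95. Their part in the annexin differences was not tested.

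Across the 5 groups the order of the deposited levels differed among the members. Anxa1 and Anxa2 had a common order: day 32 (9.09 and 10.52), Sox2-negative (8.47 and 9.43), iPSC in 2i (6.25 and 7.44), Sox2-positive (5.35 and 6.68) and iPSC with MEFs (4.43 and 5.28). Anxa5 followed the same order (8.18, 7.38, 7.00, 5.48 and 4.64). Its Sox2-negative arrays overlapped those of iPSC in 2i, and for Anxa2 only the arrays of iPSC in 2i and Sox2-positive cells overlapped. In Anxa8 the Sox2-positive fraction (6.24) stood before iPSC in 2i (5.67), and the arrays of these neighbours overlapped. The other Anxa8 probe set was highest in Sox2-negative cells (8.41), before day 32 (6.32). For Anxa1 the arrays of day 32 and Sox2-negative cells overlapped, as did those of iPSC in 2i and Sox2-positive cells, and of Sox2-positive cells and iPSC with MEFs. In Anxa3 the Sox2-positive fraction came last (3.07), after iPSC with MEFs (4.26), and Sox2-negative cells (5.49) overlapped iPSC in 2i (5.67). These orders mix groups of both array classes, between which group and class cannot be told apart. After median centring Sox2-positive cells stood above iPSC in 2i for Anxa1, Anxa2 and Anxa5. The differences of iPSC in 2i and Sox2-positive cells from iPSC with MEFs were then 0.58 and 1.37 for Anxa1. They were 0.92 and 1.85 for Anxa2 and 1.11 and 1.28 for Anxa5.

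Anxa4, Anxa6 and Anxa7, by their brightest probe sets, were highest in both groups with low 18S signal, as Anxa3 was on average. Anxa6 read 9.88 in iPSC in 2i and 9.31 at day 32, against 6.84 in iPSC with MEFs, 6.43 in Sox2-negative and 6.41 in Sox2-positive cells. Another Anxa6 probe set was lowest at day 32 (3.76) and highest in Sox2-positive (4.97) and Sox2-negative cells (4.96). Anxa4 read 9.06 at day 32 and 8.89 in iPSC in 2i, whose arrays overlapped, and 5.85 to 6.94 in the other groups. Anxa7 read 10.21, 10.14 and 9.58 in day 32, iPSC in 2i and iPSC with MEFs, and 7.81 and 7.69 in the fractions. Between the classes these orders cannot be told apart from the class.

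For 4 members more than 1 probe set had been kept. Both probe sets of Anxa8 were called in all 4 comparisons inside a class, in the same directions. The other Anxa8 probe set read 5.72 and 3.98 in Sox2-positive and 8.13 and 8.69 in Sox2-negative cells, a difference of -3.56 (limma adjusted p = 0.00691 over 14012 probe sets). Anxa7 did not hold together: its brightest probe set was lower in the sorted fractions than in iPSC with MEFs, by 1.77 and 1.89, while the others differed by -0.29 and -0.32 in Sox2-positive and by -0.14 and 0.06 in Sox2-negative cells, none of them called. The Anxa4 call in Sox2-positive cells was likewise not shared by its other probe set (difference -0.74, adjusted p = 0.349). The further probe sets of Anxa6 gave 0.87 and 0.57 against iPSC with MEFs in Sox2-positive cells, where the brightest gave -0.43, and none of the 3 was called.

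**Figure D3:**
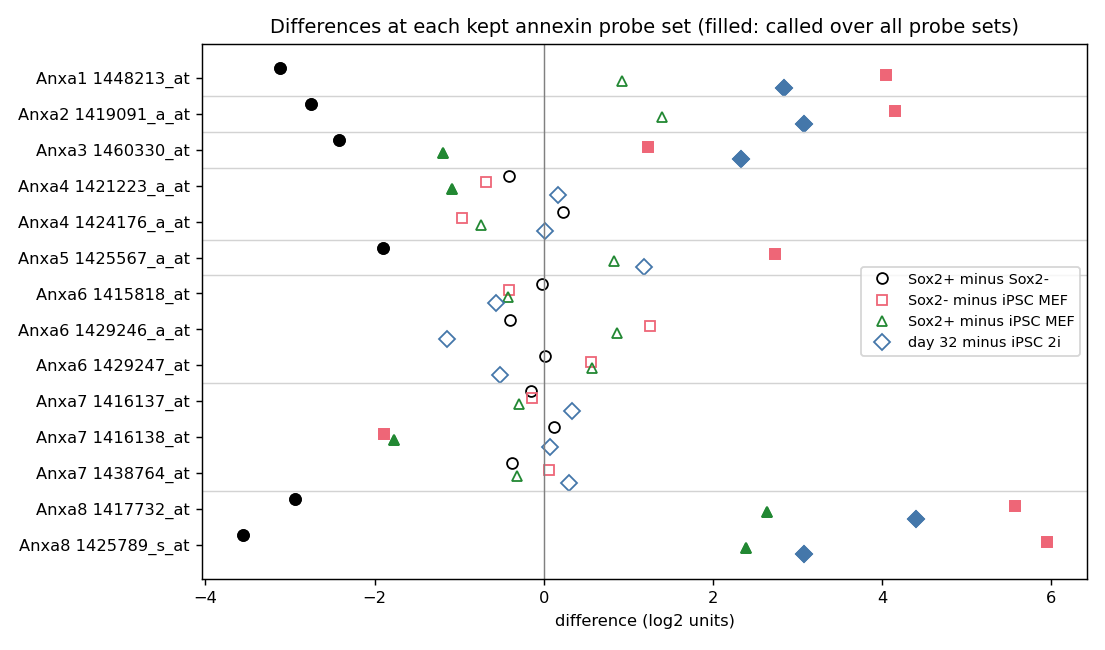
Differences in log2 units at each of the 14 kept annexin probe sets in 4 comparisons, from a limma fit over 14012 probe sets. Filled symbols were called at an adjusted p under 0.05. The pair of Anxa8 probe sets moved together, and for Anxa7 a single probe set of 3 was called.

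In both comparisons set between the array classes nearly all annexins were called higher in the group with low 18S, as were most genes. The Sox2-negative mean, of the high 18S class, still lay above that of iPSC in 2i for Anxa1, Anxa2, Anxa5 and Anxa8. The day 32 sample exceeded the mean of the 2 fractions in 8 of 8 annexins, where 74.1% of all genes were called higher and 5.18% lower, and the annexin median of 2.46 lay beside an all-gene median of 1.49. Anxa3 showed the widest gap of the 8 (difference 3.73, limma adjusted p = 2.51e-05), and Anxa5 the narrowest (1.75, adjusted p = 0.000655). After median centring 4 stayed called (Anxa3, Anxa4, Anxa6 and Anxa7), with 1500 genes higher and 2581 lower in place of 6369 and 445. For Anxa6 and Anxa8 the direction rested on the probe set. The brightest of Anxa6 gave 2.89 and another -1.21, called lower (limma adjusted p = 0.0184 over probe sets). The brightest of Anxa8 gave 2.36 and the other -0.31, not called (adjusted p = 0.585 over probe sets). With the mean of kept probe sets 6 of the 8 genes were called, without Anxa6 (0.0909) and Anxa8 (0.0849).

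Of the established iPSC cultures, the one in 2i and serum had the higher annexin signal. Of the 8 genes 7 were called higher than with MEFs and 0 lower, and Anxa7 was not called (difference 0.56, limma adjusted p = 0.110). The probe sets of a gene did not all give the same call. The other Anxa7 probe sets were called higher (1.56 and 0.95, limma adjusted p = 0.00197 and 0.018 over probe sets). The other probe sets of Anxa4 (1.26, adjusted p = 0.0825) and Anxa8 (0.79, adjusted p = 0.262) were not called. Of the further Anxa6 probe sets 1 was called higher (2.54, adjusted p = 0.00592) and 1 was not (-0.12). The background was 52.9% of all genes higher and 8.15% lower, with a median difference of 1.01. Anxa6 led (difference 3.04, 8.22-fold, adjusted p = 9.24e-05), followed by Anxa5 (2.36, 5.12-fold, adjusted p = 0.000569). Quantile normalization left 1 call (Anxa6) and median centring 2 (Anxa5 and Anxa6), with 1490 genes higher and 1491 lower and with 1311 and 2522, and both turned the Anxa7 difference below 0. The count was 4 without iPSC in 2i replicate b and 3 without iPSC with MEFs replicate b. Culture and array class cannot be told apart here.

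Partners of the annexins were taken from a list of 30 genes for S100 proteins, receptors, plasminogen activation, calcium sensors and membrane repair, of which 20 were kept. Between the fractions 7 of the 20 were called lower in Sox2-positive cells and 0 higher, beside the 5.65% and 6.86% of all genes, and the median was -1.07. S100a4 and S100a6, small calcium-binding proteins of which S100a6 binds Anxa2, were at least 7.41-fold (2.33 against 6.89, limma adjusted p = 0.000796) and 10.2-fold lower (8.80 against 12.15, adjusted p = 0.00586). Ehd2, an ATPase of the caveolar neck, was at least 2.03-fold lower (adjusted p = 0.0162). The scaffold gene Ahnak, which binds the complex of Anxa2 and S100a10, was 4.50-fold lower (adjusted p = 0.0200), sorcin (Sri), the partner of Anxa7, 2.96-fold (adjusted p = 0.0192), and Pdcd6ip, of the membrane scission machinery, 2.44-fold (adjusted p = 0.0332). The calpain gene Capn2 was the other gene called (adjusted p = 0.0369), and 13 had no call.

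S100a10, the direct partner of Anxa2, depended on the probe set, and is singled out after its values were seen. Its brightest probe set read 11.92 and 12.48 on average in Sox2-positive and Sox2-negative cells (difference -0.56, limma adjusted p = 0.234). The other read 5.92 and 5.09 against 7.12 and 7.73, a difference of -1.92 (adjusted p = 0.0372 over 14012 probe sets). In iPSC with MEFs that probe set read 4.57 and 5.55, below the Sox2-negative arrays (difference 2.37, adjusted p = 0.00464). Over all 10 arrays it ranged from 4.57 to 10.81, where the brightest stayed between 11.70 and 12.63.

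In the other comparisons the counts were as follows. Sox2-negative cells had 7 of 20 higher and 1 lower than iPSC with MEFs, beside 12.0% and 35.6% of all genes. In that comparison S100a4 was at least 7.41-fold, S100a6 20.0-fold and Pdcd6ip 5.39-fold higher, and the actin crosslinker Flna 3.39-fold lower (limma adjusted p = 0.000315, 0.00046, 0.000617 and 0.000785). Plgrkt was at least 3.49-fold and Capn2 7.59-fold higher (limma adjusted p = 0.00185 and 0.00202). Sox2-positive cells, for which 6.13% of all genes were higher and 29.8% lower, had 1 of 20 higher (Pdcd6ip, 2.21-fold, adjusted p = 0.0227) and 3 lower (Pdcd6 2.58-fold, Sri 2.06-fold and Flna, with a difference of -2.59; limma adjusted p = 0.0114, 0.0368 and 0.000847). The day 32 sample had 5 of 20 higher and 0 lower than iPSC in 2i, beside 5.23% and 2.50% of all genes. Among the 5 were S100a4 (at least 13-fold, limma adjusted p = 0.00172) and S100a6 (20.5-fold, adjusted p = 0.0027). Capn2 was 7.31-fold and Ehd2 8.51-fold higher (limma adjusted p = 0.0135 and 0.0147). The cytosolic phospholipase gene Pla2g4a was at least 2.54-fold higher there (adjusted p = 0.0404). Across the classes 14 of the 20 were called higher and 2 lower at day 32 against the fractions, where 74.1% of all genes were higher and 5.18% lower. In iPSC in 2i against iPSC with MEFs 8 were higher and 2 lower, beside 52.9% and 8.15% of all genes. These counts are given beside the shares of all genes and are not read as a result about the partners. No partner is named for these comparisons.

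**Figure D4:**
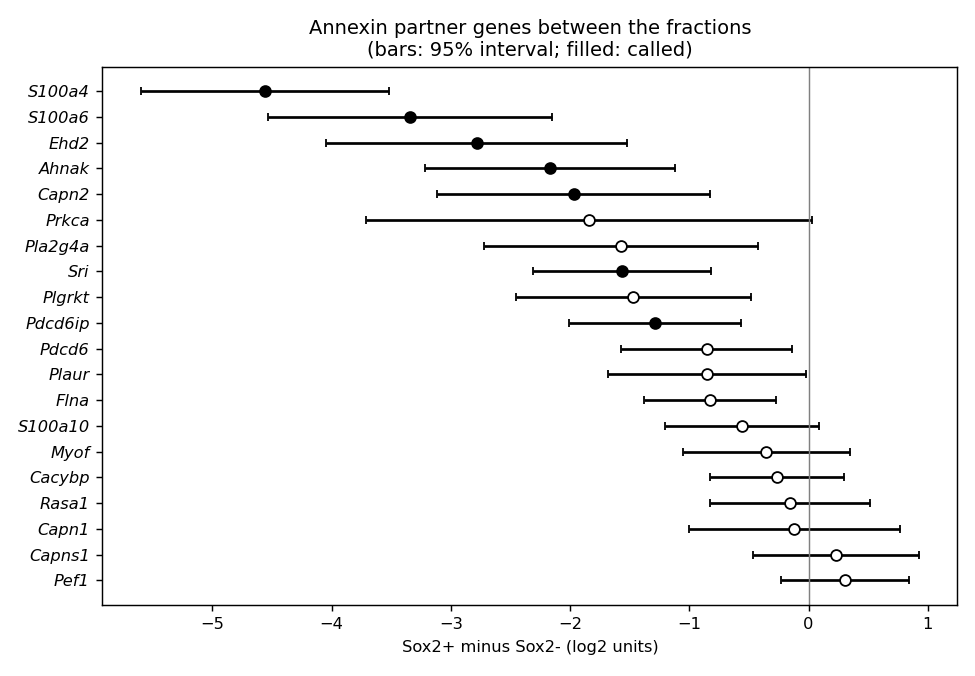
Difference in log2 units between the Sox2-positive and Sox2-negative fractions for the 20 kept genes of the annexin partner list, with 95% intervals from limma. Filled points were called. The 7 called genes all lie below 0, from Pdcd6ip at -1.29 to S100a4 at -4.56.

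The genes most like each member over the 10 arrays were found by the mean absolute difference of values after each gene's own mean was taken off. Anxa1 and Anxa2 were each other's closest gene among all kept genes, with a mean absolute difference of 0.21, where the median gene lay 1.77 from Anxa1 and 1.83 from Anxa2. The next were the fat cell regulator Pparg (0.40) and the kinase gene Lats2 (0.41) for Anxa1, and the sialomucin gene Podxl (0.35) and Id2 (0.40) for Anxa2. Anxa8 was closest to Gpm6b (0.33), Irf2 (0.33) and Emp3 (0.40), and Anxa2 stood at place 9 in its order. Anxa3 was closest to the nuclear lamina gene Lmna (0.19), Lrrfip1 (0.34) and the cadherin gene Cdh2 (0.40). Anxa5 was closest to Zhx1 (0.24), Rnf13 (0.29) and Spats2l (0.29). Anxa4 was closest to Mtg1 (0.15), Cstf2 (0.16) and Tollip (0.18), with a median over genes of 0.82. Anxa6 was closest to Cdc37 (0.15), Slu7 (0.15) and Fryl (0.15), with a median of 0.94, and Anxa7 to Dym (0.12), Tspan3 (0.15) and Zfp64 (0.16), with a median of 0.75. The 10 arrays span both 18S classes, which enter this measure for all genes.

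Anxa9, Anxa10 and Anxa13, the other annexins with probe sets of a single symbol, did not pass the filter. Their values lay below 4 on all arrays apart from Anxa9 on Sox2-negative replicate b, at 4.02.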

How the data were processed

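The deposited table of 10 arrays was used as it was. Its log2 expression values were made by the authors with GCRMA and the affy package, per the submitters' processing notes, which name no version. Per the labels, Trizol served for extraction and either of a pair of NuGEN kits for amplification, with no statement of which sample had which. Of 22690 rows, 64 controls, 691 with several symbols and 1555 with none were left out of the tests. The kept genes (above 4 on at least 2 arrays, 1 probe set per gene) were fitted with limma 3.58.1 in R 4.3.3, in a model with a mean per group over all arrays (5 residual degrees of freedom) and Benjamini-Hochberg adjustment over the 8599 genes. "Called" means an adjusted p under 0.05. A fold whose lower group lay below 4 on both arrays is given against 4, as at least so many fold. The fit was tested on simulated data. With 2 arrays a group, the smallest two-sided p of an exact permutation test is 0.33, and the number of arrays limits the precision. All members, the partner list, the marker lists and the motifs were chosen with earlier results of these data known. Every member is named, partners by smallest adjusted p (at most 6 a comparison; Capn2 between the fractions and the S100a10 probe sets were added after their values were seen), and the 3 genes most like each member whose group means span at least 2 log2 units. The alternatives were other filters, scalings, arrays, weights, an intensity trend, probe set choices, the replicate letter as a block, and each array left out. Figures were drawn with matplotlib 3.10.9.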

Additional observations from a re-analysis of the deposited data

How the results depend on the processing

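Under quantile normalization the annexins called were 2 for Sox2-positive cells against iPSC with MEFs, 1 for iPSC in 2i against iPSC with MEFs and 4 for day 32 against the fractions. Median centring gave 2 and 4 for the latter pair. The compared arrays alone gave 1 between the fractions, and the arrays of the same 18S class alone gave 2 for Sox2-positive cells against iPSC with MEFs. Leaving out single arrays gave 3 to 5 between the fractions, 2 to 5 for Sox2-positive cells and 5 to 6 for Sox2-negative cells against iPSC with MEFs, 1 to 4 for day 32 against iPSC in 2i, 3 to 6 between the iPSC cultures and 7 to 8 for day 32 against the fractions. No other alternative moved a count by more than 1.5 times. The cause of those that moved was not tested, and leaving out an array also lowered the number of arrays.

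Under these alternatives, in which a gene keeps 1 value, the signs that turned were of differences that had not been called; single probe sets of Anxa6 and Anxa8 also turned at day 32 against the fractions, as given above. Against iPSC with MEFs, Anxa6 became 0.08 in Sox2-positive and 0.09 in Sox2-negative cells under quantile normalization, 0.03 in each under median centring, and 0.34 and 0.47 with the mean of kept probe sets. Anxa7 became -0.03 (quantile) and -0.69 (median centring) between the iPSC cultures, and -0.14 between the fractions with the mean of probe sets. Leaving out arrays gave -0.27 to 0.23 for Anxa6 and -0.04 to 0.28 for Anxa7 between the fractions, -0.13 to 1.98 for Anxa1 in Sox2-positive cells against iPSC with MEFs, and -0.16 to 0.49 for Anxa4 and -0.05 to 0.18 for Anxa7 at day 32 against iPSC in 2i.

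Whether the replicate letters pair the samples is not stated. Over genes, the a minus b gaps of day 32 correlated at 0.33 with those of Sox2-positive and 0.21 with those of Sox2-negative cells. Between the fractions the correlation was 0.05, and pairs with an iPSC group lay from -0.06 to 0.04. With the replicate block 5 annexins were called between the fractions and 3 for Sox2-positive cells against iPSC with MEFs, where Anxa3 lost its call (limma adjusted p = 0.0554). The block changed no other annexin call in the 6 comparisons.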

Other observations

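A probe set annotated to 3 symbols (Gm2274, Gm2260 and Anxa11), which cannot be assigned to any of them, ran against the annexins described above. It read 6.49 and 6.64 in Sox2-positive and 3.98 and 3.97 in Sox2-negative cells, a difference of 2.59, and 7.46 and 7.78 in iPSC with MEFs. In iPSC in 2i it read 6.82 and 5.96 and at day 32 5.36 and 6.43. It was left out of the fit, and its difference was not tested.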
